A study of Arabidopsis thaliana with 12 samples.

Results

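Calmodulin-like proteins are small calcium sensors. They bind calcium through EF-hand loops, as calmodulin does, change shape when cytosolic calcium rises, and pass the signal to partner proteins. Plants hold a large family of them, and many of its genes are switched on quickly by wounding, touch, low oxygen or microbial signals. The genes described here are 7 whose single-gene probe set carries a symbol of CML followed by a number, and AT5G39670. The 7 are CML23, CML30, CML37, CML38, CML41, CML42 and CML43, while AT5G39670 is an EF-hand gene known here by its locus only. Together these are 8 genes, each with 1 probe set, out of 22746 probe sets tested, of which 13513 name a single gene. Another 503 name several genes and 8730 are unlisted in the annotation used here. Further CML genes on the array could therefore be missed, and the 7 do not stand for the whole family. The CML genes were taken by name, under a rule made with earlier results of these data known. AT5G39670 was added because it was among the large rises of C3H15-OE over wild type, so its level in that group is given as a description, with no test.

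The RNA came from Arabidopsis thaliana, Col-0 background, from the lowest 4 cm of stems that had grown to 12 to 17 cm. All plants grew in a glasshouse at 22 °C with 16 h of light and 8 h of dark. There were 4 groups of 3 arrays: overexpressors of C3H14 (C3H14-OE), overexpressors of C3H15 (C3H15-OE), the c3h14c3h15 double mutant and untransformed wild type (WT). C3H14 and C3H15 are related CCCH zinc finger proteins, and the comparisons asked what the gain of either or the loss of both does to stem transcripts. The labels used here name neither the transgene promoter, nor the mutant alleles, nor the plant age. Each group's arrays are labelled as biological replicates, but whether the overexpressor arrays are separate transgenic lines is unclear, so the p-values reflect only how far these particular samples spread. All levels below are log2 intensities and all differences are log2 differences of group means, with the standard error (SE) and adjusted p of 1 limma model over all 12 arrays.

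Array medians lay between 5.65 and 5.84. The deposited table has no detection calls, and the probe sets of CML23, CML37 and CML43 lay among the dimmest 40% of probe sets, so small differences in these 3 genes are the least certain. The array labelled C3H14-OE replicate 3 stood apart: its score on the first principal component, 40.8, lay among those of C3H15-OE (27.6 to 48.1) and away from the other C3H14-OE arrays (14.6 and 8.1). WT replicate 2 (-5.2) and c3h14c3h15 replicate 1 (-18.5) also lay apart from the others of their groups (WT -24.2 and -31.3, double mutant -57.1 and -44.7). The probe set of C3H14 itself (AT1G66810) read 8.43, 9.10 and 7.07 in the libraries labelled C3H14-OE, against 7.01, 6.12 and 7.43 in WT, so replicate 3 lay within the WT range. It read 5.18, 5.39 and 5.99 in C3H15-OE, all below C3H14-OE replicate 3. These arrays also lay below all WT arrays, as for 16.9% of probe sets, and below all double mutant arrays, as for 20.6%. The difference of C3H15-OE from WT was -1.34 and did not pass (limma adjusted p = 0.0993). In the double mutant it read 6.55, 6.43 and 6.09, overlapping WT (-0.50, limma adjusted p = 0.583), so this probe set showed no loss that passed the test. Whether it lies outside the disrupted part is not known here. No single-gene probe set was found for C3H15, so its gain in C3H15-OE and its loss in the double mutant could not be checked. Secondary wall markers were present on every array, and their summed linear intensity (IRX15 and GUT2, also called IRX10) was 448 to 534 in C3H14-OE, 243 to 566 in C3H15-OE and 1230 to 1334 in the double mutant, against 734 to 805 in WT. The one named tapetum marker, ATA27, stayed between 1.91 and 2.15 on all arrays. The green tissue markers LHCB4.1 and LHCB4.2 summed to 4607 to 6633 in C3H14-OE, 5474 to 6889 in C3H15-OE and 8866 to 11470 in the double mutant, against 7276 to 8283 in WT. In whole stem pieces, fewer cells of a type and less RNA per cell cannot be told apart, and the part of these marker shifts in the results below was not tested.

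Among the 7 CML genes, none passed an adjusted p of 0.05 against WT in either overexpressor or the double mutant, where 0.044% (C3H14-OE), 6.65% (C3H15-OE) and 5.7% (double mutant) of all probe sets did. Arrays did not overlap with WT for 2 of the 7 CML genes in C3H14-OE (21.3% of all probe sets), 2 for C3H15-OE (29.6%) and 4 for the double mutant (23.9%). An unadjusted p under 0.05 was reached by 2 of the 7 for C3H14-OE (14% of all probe sets), 1 for C3H15-OE (24.6%) and 1 for the double mutant (21.8%). The median difference from WT of the 7 genes was 0.35 for C3H14-OE (all probe sets -0.04), 0.45 for C3H15-OE (all probe sets -0.03) and 0.17 for the double mutant (all probe sets -0.01). The single CML gene to pass in any of the 6 comparisons was CML41, between C3H15-OE and the double mutant. CML38 and CML37 were high on single overexpressor arrays, and CML38 was also above the highest WT array on every C3H14-OE and every double mutant array.

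**Figure D1:**
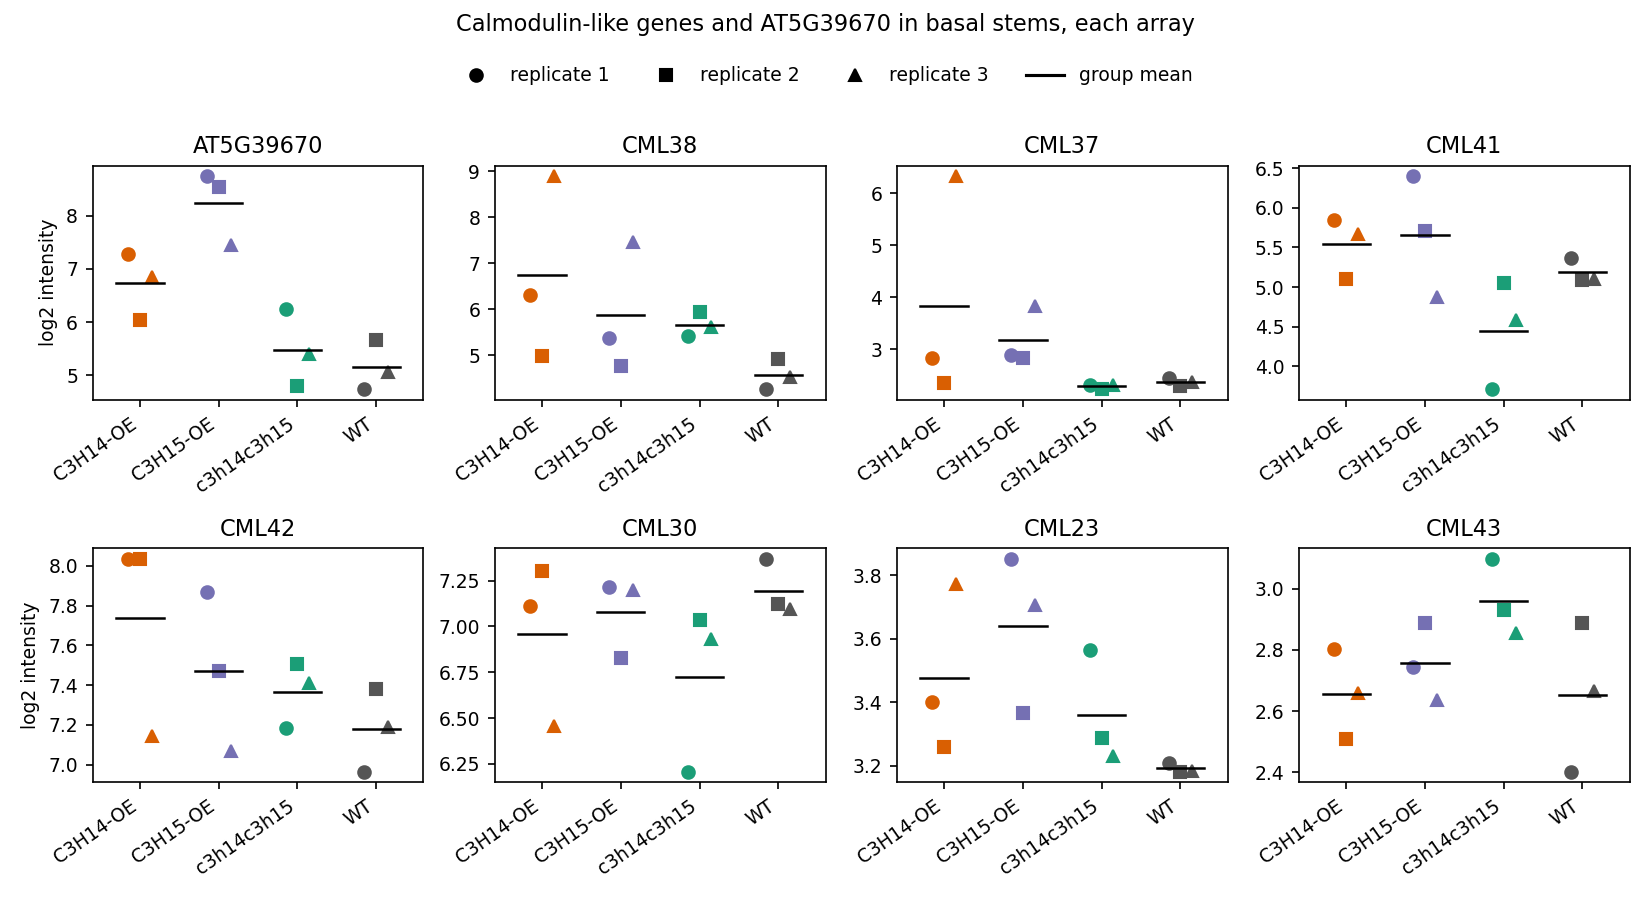
Log2 intensity (vertical axis, a separate scale for each gene) of the 8 genes on each of the 12 arrays, by group, with circles, squares and triangles for replicates 1, 2 and 3 and a line at the group mean. CML38 and CML37 reach 8.89 and 6.33 on the array C3H14-OE replicate 3, while AT5G39670 is at 7.45 or above on all C3H15-OE arrays.

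AT5G39670 had its highest level in C3H15-OE. It read 8.75, 8.54 and 7.45 in C3H15-OE, 7.28, 6.04 and 6.85 in C3H14-OE, and 6.24, 4.79 and 5.39 in the double mutant, against 4.73, 5.65 and 5.05 in WT. All C3H15-OE arrays lay above all other arrays, the C3H14-OE arrays lay above all WT arrays, and the double mutant arrays overlapped with both C3H14-OE and WT. The group means ran in the order C3H15-OE (8.25 ± 0.70, SD, n = 3), C3H14-OE (6.73 ± 0.63), double mutant (5.47 ± 0.73) and WT (5.15 ± 0.47).

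The difference of AT5G39670 between C3H15-OE and WT, which chose the gene, was 3.10 log2 units, or 8.58-fold. Between C3H15-OE and the double mutant it was 2.78, on the same C3H15-OE arrays. In C3H14-OE the gene stood 1.58 log2 units above WT (SE 0.44) and did not pass (limma adjusted p = 0.202), with all 3 arrays above all WT arrays, as for 9.31% of probe sets. In the double mutant it stood 0.33 above WT (SE 0.44, adjusted p = 0.732), with an interval of the difference from -0.64 to 1.29. C3H14-OE stood 1.25 above the double mutant (SE 0.44, adjusted p = 0.0768), and this passed only without c3h14c3h15 replicate 1 (1.64, adjusted p = 0.0311). The comparisons with WT share the WT arrays, whose levels were part of what chose AT5G39670. Its differences from WT in C3H14-OE and the double mutant are therefore not free of that choice.

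CML38 is induced by wounding and low oxygen in Arabidopsis and sits in cytoplasmic RNA granules under low oxygen. It read 6.31, 4.99 and 8.89 in C3H14-OE, 5.37, 4.77 and 7.47 in C3H15-OE, and 5.41, 5.93 and 5.62 in the double mutant, against 4.26, 4.91 and 4.52 in WT. The highest readings were those of replicate 3 of each overexpressor, and the lowest C3H15-OE array lay inside the WT range. All C3H14-OE arrays lay above all WT arrays, as for 9.31% of probe sets, the lowest at 4.99 against a WT highest of 4.91. Within a group the SD was 1.98 in C3H14-OE and 1.42 in C3H15-OE, compared with 0.26 in the double mutant and 0.33 in WT (n = 3 each).

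CML38 stood 2.17 log2 units above WT in C3H14-OE (SE 0.84, adjusted p = 0.305) and 1.30 above in C3H15-OE (SE 0.84, adjusted p = 0.373), and neither passed. The value in C3H14-OE was 1.09 without C3H14-OE replicate 3, and that in C3H15-OE was 0.51 without C3H15-OE replicate 3. The 2 overexpressors differed by 0.86 (C3H14-OE minus C3H15-OE, interval -0.98 to 2.70), which turned to -0.22 without C3H14-OE replicate 3.

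In the double mutant CML38 stood 1.09 log2 units above WT, or 2.13-fold, and the groups did not overlap, with the lowest mutant array at 5.41 and the highest WT array at 4.91. Of all probe sets, 10.8% were higher in the double mutant than in WT without overlap. With the spread shared over all 4 groups the difference did not pass (SE 0.84, adjusted p = 0.503). When only the 6 arrays of these 2 groups were fitted, the SE was 0.20 and it did pass (adjusted p = 0.0408). Without both overexpressor arrays numbered 3, a choice made after the member values were seen, the SE was 0.32 and the adjusted p 0.0723.

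CML37, a relative of CML38 with a part in jasmonate-linked defence against herbivores, read 2.83, 2.35 and 6.33 in C3H14-OE, 2.88, 2.84 and 3.83 in C3H15-OE, and 2.32, 2.23 and 2.32 in the double mutant, against 2.44, 2.29 and 2.36 in WT. A single array, C3H14-OE replicate 3, was far above all others, and the next highest was C3H15-OE replicate 3. All C3H15-OE arrays lay above all WT arrays, as for 12.7% of probe sets. The difference from WT was 1.47 in C3H14-OE (SE 0.77, adjusted p = 0.414) and 0.23 without C3H14-OE replicate 3. It was 0.82 in C3H15-OE (SE 0.77, adjusted p = 0.557), or 0.50 without C3H15-OE replicate 3, and -0.07 in the double mutant (SE 0.77, adjusted p = 0.972). C3H14-OE stood 1.55 above the double mutant (SE 0.77, adjusted p = 0.191), or 0.30 without C3H14-OE replicate 3. C3H15-OE stood 0.89 above the double mutant (SE 0.77, adjusted p = 0.426), and this passed once C3H14-OE replicate 3, an array of neither group, was left out of the shared spread (SE 0.23, adjusted p = 0.0181). It was 0.57 without C3H15-OE replicate 3 (adjusted p = 0.678).

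Across the 12 arrays CML37 and CML38 had a Pearson correlation of 0.87 and a Spearman correlation of 0.27. Without C3H14-OE replicate 3 and C3H15-OE replicate 3 the Pearson correlation was 0.15, so the likeness rests on those 2 arrays. The gene next to CML38 on chromosome 1, AT1G76640, carries CML39 among its synonyms but falls outside the naming rule. It stayed between 2.64 and 3.31 on all arrays and read 2.64 on C3H14-OE replicate 3.

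**Figure D2:**
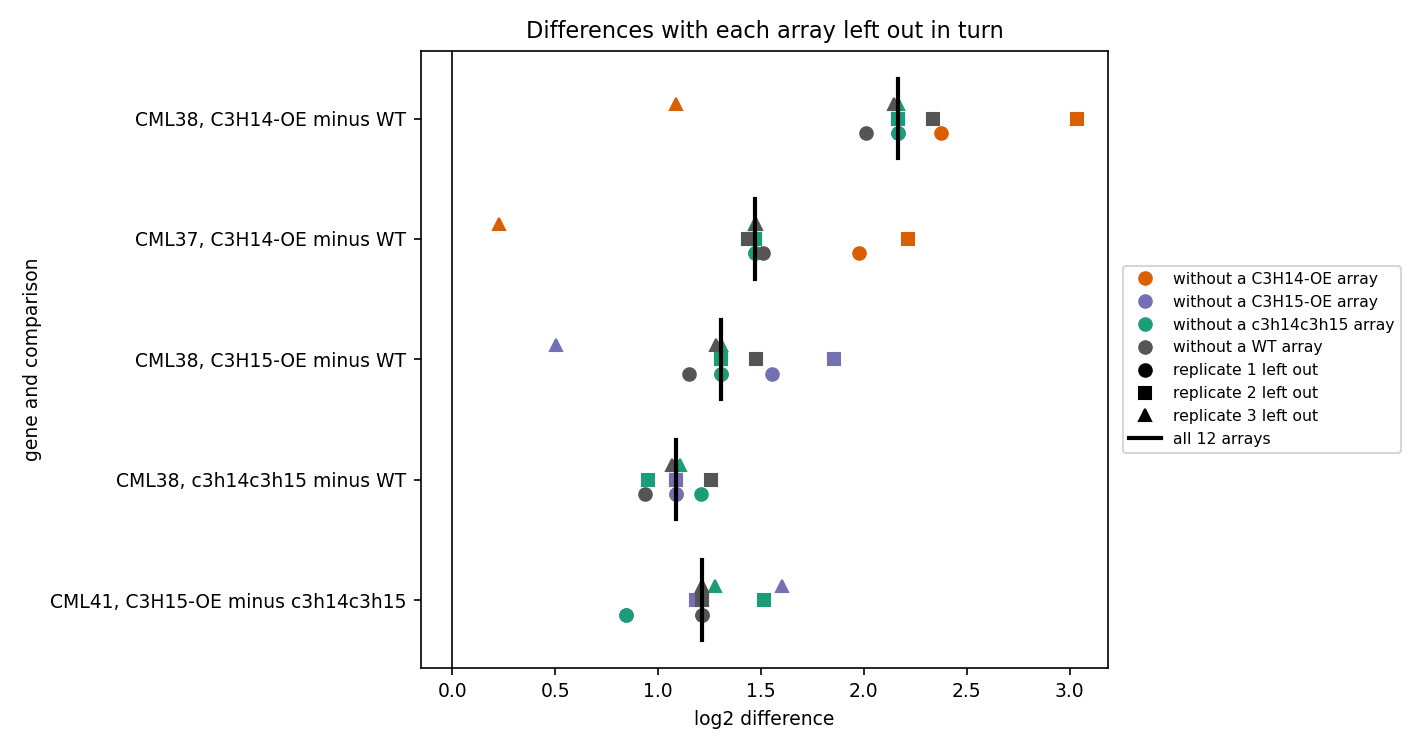
Log2 difference (horizontal axis) for CML38, CML37 and CML41 in 5 comparisons, with all 12 arrays (black bar) and with each array left out in turn (colour for its group, shape for its replicate number). CML37 in C3H14-OE moves to 0.23, against 1.47 with all arrays, when C3H14-OE replicate 3 is left out.

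Genes of rapid wounding and touch responses were read beside CML38 and CML37, since both belong to that response. A list of such genes had 6 members with a named probe set: STZ (also called ZAT10) and WRKY53, which are stress-induced transcription factors, WRKY22, the jasmonate-linked factor ORA47, and the U-box ubiquitin ligases PUB22 and PUB23. Most names on the list, among them WRKY33 and WRKY40, had no single-gene probe set named, so these 6 do not stand for the whole response. Their mean level was 5.53, 4.80 and 6.42 in C3H14-OE, 5.05, 4.92 and 5.85 in C3H15-OE and 4.69, 4.35 and 4.64 in the double mutant, against 4.67, 4.84 and 4.19 in WT. The highest mean was on C3H14-OE replicate 3 and the next on C3H15-OE replicate 3, the arrays with the highest CML38.

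ORA47 read 6.94 on C3H14-OE replicate 3 and 7.06 on C3H15-OE replicate 3, and between 3.93 and 5.76 on the other 10 arrays. PUB23 read 6.04 and 4.52 on these arrays, and at most 4.13 on the others. STZ was highest on C3H14-OE replicate 1 (9.06) and WRKY53 on C3H15-OE replicate 1 (8.12). Of the 6 genes, 1 passed against WT in C3H15-OE, WRKY53 (2.0, SE 0.34, adjusted p = 0.0103), where 3.09% of all probe sets were higher. None passed against WT in C3H14-OE (0.044% of all probe sets) or in the double mutant (5.7%). WRKY53 stood above the double mutant by 1.763 in C3H14-OE (limma adjusted p = 0.00735) and by 2.527 in C3H15-OE (adjusted p = 0.00075). Both calls held with each array left out in turn. STZ stood 1.969 above the double mutant in C3H14-OE (adjusted p = 0.0203), a call lost in 4 of 12 such fits. Of all probe sets 7.89% (C3H14-OE) and 12.3% (C3H15-OE) passed as higher than the double mutant. The median of the list relative to WT was 1.0 for C3H14-OE, 0.57 for C3H15-OE and -0.07 for the double mutant, where the medians over all probe sets were -0.04, -0.03 and -0.01. The part of these genes' state in the CML38 and CML37 levels was not tested.

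**Figure D3:**
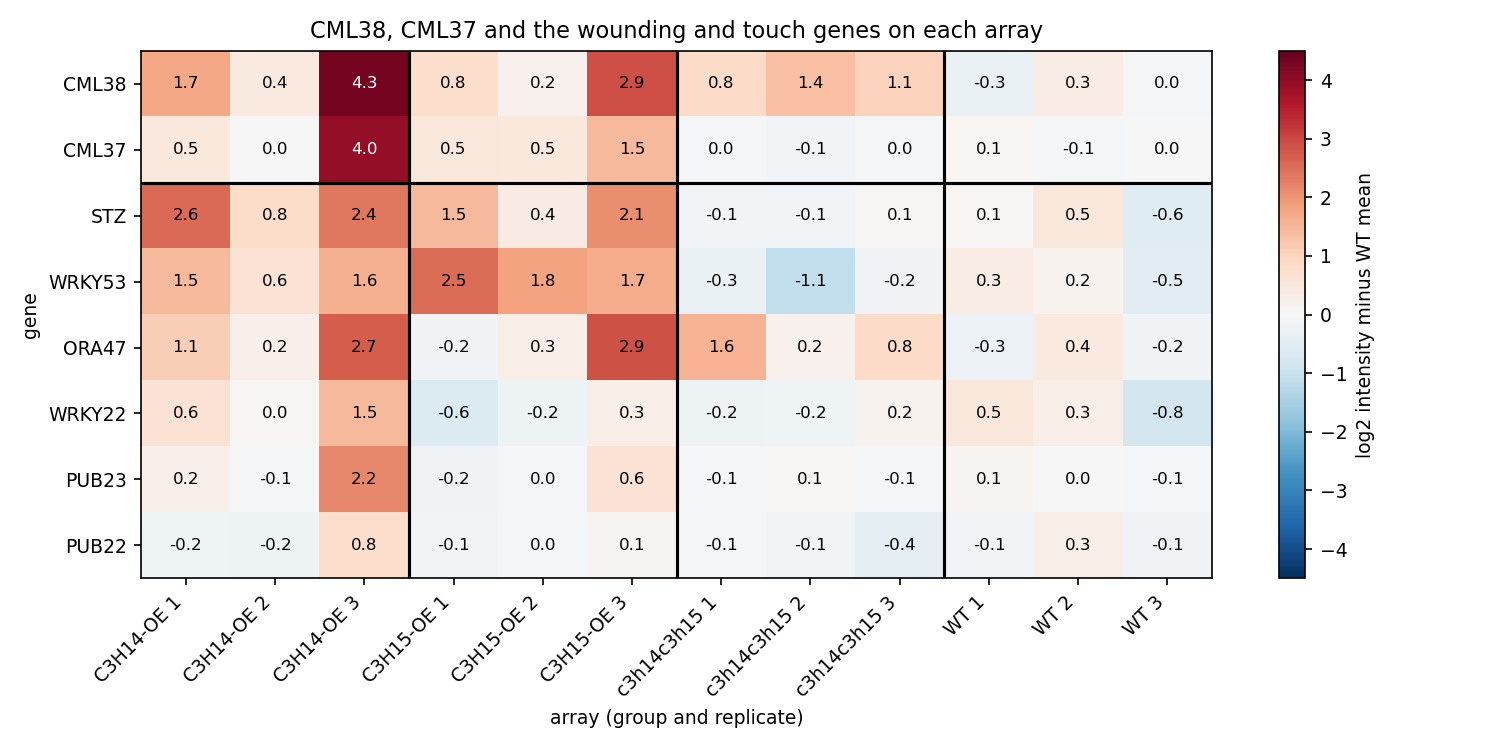
Log2 intensity minus the WT mean (colour and printed values) of CML38, CML37 and the 6 named wounding and touch genes on each of the 12 arrays. CML38, CML37, WRKY22, PUB22 and PUB23 have their highest values on C3H14-OE replicate 3, and ORA47 its highest on C3H15-OE replicate 3.

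CML41 localises to plasmodesmata, where it takes part in the closure of these channels by callose after bacterial signals. It read 5.84, 5.10 and 5.67 in C3H14-OE, 6.40, 5.71 and 4.88 in C3H15-OE, and 3.71, 5.06 and 4.58 in the double mutant, against 5.37, 5.09 and 5.11 in WT. The double mutant arrays lay below all WT arrays, as for 13.1% of all probe sets, and below all C3H14-OE arrays, as for 17.4%. The C3H15-OE arrays overlapped with every other group. From high to low the means were C3H15-OE (5.66 ± 0.76), C3H14-OE (5.54 ± 0.39), WT (5.19 ± 0.16) and the double mutant (4.45 ± 0.68, SD, n = 3 each).

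CML41 was 1.21 log2 units higher in C3H15-OE than in the double mutant, or 2.32-fold (SE 0.38, limma adjusted p = 0.0403), although the lowest C3H15-OE array (4.88) lay below the highest mutant array (5.06). Of all probe sets 23% passed in this comparison, and 12.3% passed in the same direction. The call was lost in 8 of the 12 fits that left out 1 array: without C3H14-OE replicate 1, C3H15-OE replicate 1 or 2, c3h14c3h15 replicate 1 or 3, or any 1 of the WT arrays. The difference was smallest, 0.84, without C3H15-OE replicate 1 or c3h14c3h15 replicate 1. Over all alternatives the adjusted p ran from 0.0109 to 0.154, and it was 0.0622 with a block for replicate number.

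C3H14-OE stood 1.09 above the double mutant for CML41 (SE 0.38, adjusted p = 0.077), and this passed only without C3H15-OE replicate 3 (adjusted p = 0.0451). Against WT, CML41 stood at -0.74 in the double mutant (SE 0.38, adjusted p = 0.289), at 0.47 in C3H15-OE (adjusted p = 0.488) and at 0.35 in C3H14-OE (adjusted p = 0.705). The value in the double mutant was -0.37 without c3h14c3h15 replicate 1. That in C3H15-OE was 0.10 without C3H15-OE replicate 1 and 0.87 without C3H15-OE replicate 3. C3H14-OE stood 0.72 above the double mutant without c3h14c3h15 replicate 1.

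**Figure D4:**
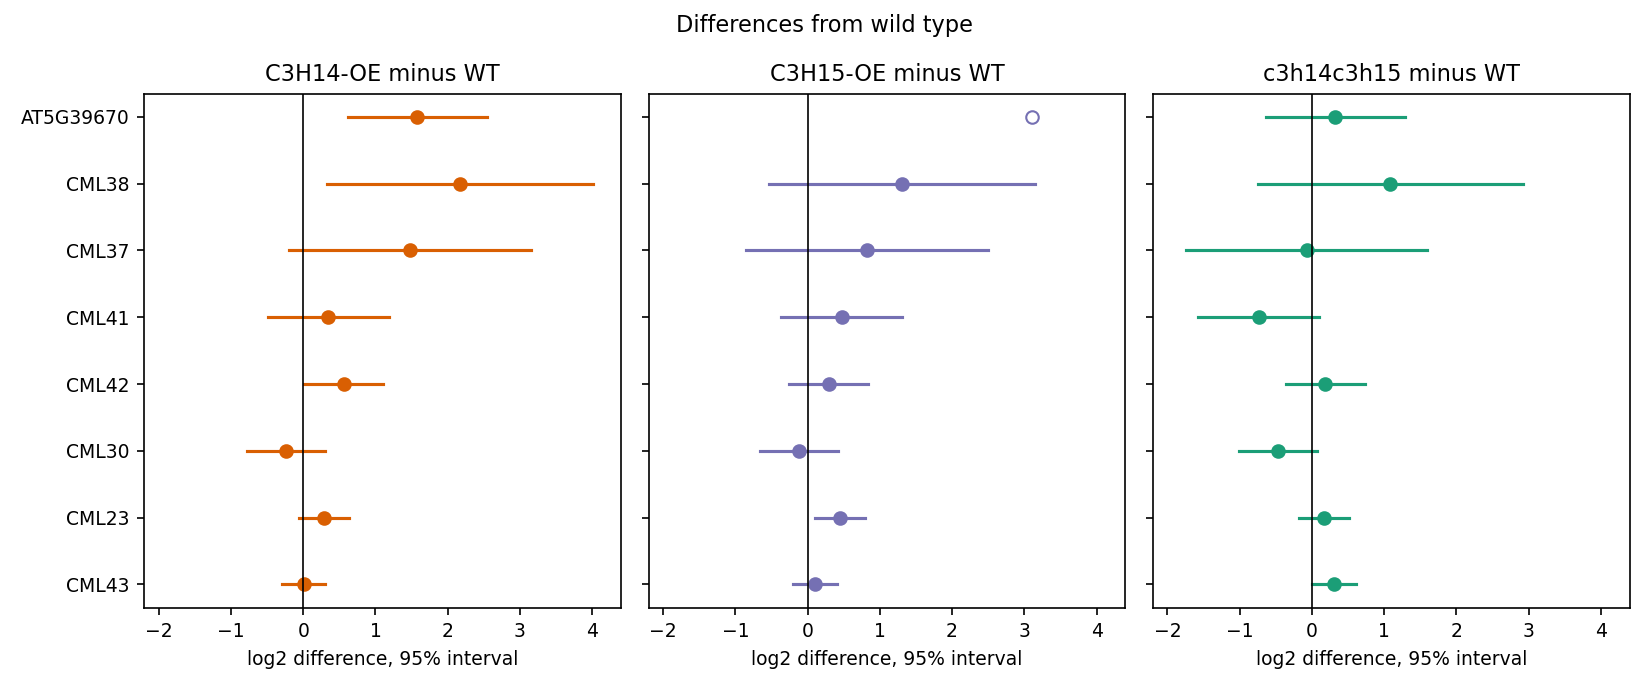
Log2 difference from WT (horizontal axis) of the 8 genes in C3H14-OE, C3H15-OE and the double mutant, with the 95% interval of each difference from the fit over 12 arrays; the open circle has no interval, since AT5G39670 was chosen on that value. The intervals of CML38 and CML37 are the widest, and those of CML43 and CML23 the narrowest.

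CML42, which takes part in trichome branching and in the response to herbivores, read 8.03, 8.04 and 7.14 in C3H14-OE, 7.87, 7.47 and 7.07 in C3H15-OE, and 7.18, 7.51 and 7.41 in the double mutant, against 6.96, 7.38 and 7.19 in WT. Its levels on C3H14-OE replicate 3 and C3H15-OE replicate 3, where CML38 was highest, were the lowest of their groups. It stood 0.56 above WT in C3H14-OE (SE 0.25, adjusted p = 0.35) and 0.86 above without C3H14-OE replicate 3 (adjusted p = 0.347). In C3H15-OE the difference from WT was 0.29 (interval -0.26 to 0.84), and in the double mutant it was 0.19 (interval -0.36 to 0.74). Without both overexpressor arrays numbered 3, CML42 passed between C3H14-OE and the double mutant (0.67, adjusted p = 0.0389), against 0.37 with all arrays (adjusted p = 0.332).

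CML30 read 7.11, 7.30 and 6.45 in C3H14-OE, 7.21, 6.83 and 7.20 in C3H15-OE, and 6.21, 7.04 and 6.93 in the double mutant, against 7.37, 7.12 and 7.10 in WT. The 3 double mutant arrays lay below all WT arrays, as for 13.1% of probe sets, and both overexpressor groups overlapped with WT. The difference from WT was -0.47 in the double mutant (SE 0.25, adjusted p = 0.292), -0.24 in C3H14-OE (adjusted p = 0.682) and -0.12 in C3H15-OE (adjusted p = 0.822). The value in the double mutant was -0.21 without c3h14c3h15 replicate 1, and that in C3H14-OE was 0.01 without C3H14-OE replicate 3.

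CML23, a close relative of the touch gene TCH2 with a part in the control of flowering, read 3.40, 3.26 and 3.77 in C3H14-OE, 3.85, 3.37 and 3.71 in C3H15-OE, and 3.57, 3.29 and 3.23 in the double mutant, against 3.21, 3.18 and 3.18 in WT. The WT arrays spanned only 0.03 log2 units, and the arrays of each other group lay above them. Of all probe sets, 9.31% (C3H14-OE), 12.7% (C3H15-OE) and 10.8% (double mutant) were higher than WT without overlap. These comparisons share the same WT arrays, so they are not separate observations. The difference from WT was 0.45 in C3H15-OE (SE 0.16, adjusted p = 0.111), 0.29 in C3H14-OE (SE 0.16, adjusted p = 0.444) and 0.17 in the double mutant (SE 0.16, adjusted p = 0.599), and none passed.

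CML43, known for its induction in disease resistance responses, read 2.80, 2.51 and 2.66 in C3H14-OE, 2.75, 2.89 and 2.64 in C3H15-OE, and 3.10, 2.93 and 2.86 in the double mutant, against 2.40, 2.89 and 2.67 in WT. Every group overlapped with WT, and the double mutant lay above all C3H14-OE arrays. The difference from WT was 0.31 in the double mutant (SE 0.14, adjusted p = 0.221), 0.10 in C3H15-OE (adjusted p = 0.7) and 0.00 in C3H14-OE (interval -0.30 to 0.31).

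The direct comparison of the overexpressors gave no called gene among the 7 CML genes, where 0.123% of all probe sets passed. None of the 7 reached an unadjusted p under 0.05, against 9.79% of all probe sets, and all 7 overlapped between the groups, against 17.2% of all probe sets that did not. AT5G39670 did not overlap, with C3H14-OE below C3H15-OE, as for 8.63% of probe sets; this rests on the C3H15-OE arrays that chose it. Between C3H14-OE and the double mutant none of the 7 passed, and 2 had an unadjusted p under 0.05, where 14.7% of all probe sets passed and 31% had an unadjusted p under 0.05. The groups did not overlap for 3 of them, CML37 and CML41 above (17.4% of all probe sets) and CML43 below (17.8%, and 35.2% in either direction). Between C3H15-OE and the double mutant 1 of the 7, CML37, did not overlap, against 39.4% of all probe sets, and 1, CML41, had an unadjusted p under 0.05, against 36.8%.

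The genes whose pattern over the 12 arrays was most like that of AT5G39670, among 3277 single-gene probe sets with a range of at least 1 log2 unit, were AT1G23850 (Pearson correlation 0.97, Spearman 0.97), AT5G12050 (0.97 and 0.94), AT1G57630 (0.96 and 0.92), AT5G52760 (0.96 and 0.94) and AT5G08240 (0.96 and 0.95). Without C3H15-OE replicates 1 and 2, the arrays farthest from the median of AT5G39670, the Pearson correlations were 0.91 to 0.97. AT1G23850 read 9.20, 8.97 and 8.92 in C3H15-OE and 8.16, 7.53 and 8.21 in C3H14-OE, against 6.83, 7.27 and 6.62 in WT. All arrays of both overexpressors lay above all WT arrays, as for 12.7% (C3H15-OE) and 9.31% (C3H14-OE) of probe sets. These genes are ranked by likeness to a gene that was chosen for its level in C3H15-OE, and they are known here by locus only.

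For CML38 the most alike were AT3G14395 (Pearson correlation 0.96, Spearman 0.87), AT1G74450 (0.94 and 0.87), AT4G29780 (0.94 and 0.86), AT5G64870 (0.94 and 0.82) and AT2G17660 (0.93 and 0.74). Without C3H14-OE replicate 3 and C3H15-OE replicate 3 their Pearson correlations were 0.58 to 0.81. AT4G29780 read 9.66 on C3H14-OE replicate 3 and 9.56 on C3H15-OE replicate 3, and at most 7.35 on any other array. For CML41 they were AT4G26910, AT5G41770 and AT1G01770, with Pearson correlations of 0.93, 0.92 and 0.90, or 0.80, 0.67 and 0.80 without C3H15-OE replicate 1 and c3h14c3h15 replicate 1.

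Other parts of calcium signalling could be read only in part. Of 11 lists of calcium genes, 9 had no single-gene probe set named in the tables used here, among them the calmodulins, the CBL sensors with their kinases, and the calcium-dependent kinases. The list of channels had 8 named members, all glutamate receptor-like (GLR) genes, which form calcium-permeable channels. In C3H15-OE against WT, 2 of the 8 rose and 0 fell, where 3.09% of all probe sets were higher and 3.57% lower, with a list median of 0.19. In the double mutant against WT, 0 rose and 1 fell, where 2.53% were higher and 3.17% lower, with a median of 0.12. None passed in C3H14-OE against WT, where the median was 0.05. In C3H15-OE against the double mutant, 4 were higher and 0 lower, where 12.3% and 10.7% of all probe sets were, with a median of 0.24. In C3H14-OE against the double mutant, 2 were higher and 0 lower (7.89% and 6.86% of all probe sets), with a median of -0.13.

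GLR2.8 read 3.63, 3.69 and 3.23 in C3H15-OE and 2.69, 2.69 and 2.66 in C3H14-OE, against 2.62, 2.63 and 2.43 in WT. All C3H15-OE arrays lay above the arrays of both other groups, as for 12.7% of probe sets against WT and 8.63% against C3H14-OE. It rose by 0.96 in C3H15-OE over WT (SE 0.13, adjusted p = 0.00397), a call that held with each array left out in turn. GLR2.8 was dim, with a mean level over all arrays of 2.89, below that of CML37 (2.92). It was left out with the dimmest probe sets, so its calls were not tested in that setting and are less certain. GLR2.8 was 0.84 lower in C3H14-OE than in C3H15-OE by the same fit (adjusted p = 0.0364), where 0.0615% of all probe sets were lower. This call was lost without C3H14-OE replicate 1 or 2, C3H15-OE replicate 1 or 2, c3h14c3h15 replicate 3 or any 1 of the WT arrays, with adjusted p-values up to 0.154, and with only the arrays of these groups (0.149).

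GLR2.7 rose by 1.25 in C3H15-OE over WT (SE 0.31, adjusted p = 0.0346). It read 5.92, 5.66 and 5.03 in C3H15-OE, against 4.43, 4.14 and 4.28 in WT. GLR2.7 was also left out with the dimmest probe sets, so this rise was not tested in that setting. Its call was lost without C3H15-OE replicate 1 or 2 or any 1 of the WT arrays (adjusted p up to 0.134), and without all 3 arrays that lay apart (0.0638). GLR1.4 fell in the double mutant relative to WT by 0.82 (SE 0.16, adjusted p = 0.0146), a call that was lost without WT replicate 2 (adjusted p = 0.0552) and without all 3 arrays that lay apart (adjusted p = 0.0848). It read 4.65, 4.59 and 4.64 in the double mutant, against 5.37, 5.56 and 5.42 in WT, and the groups did not overlap, as for 13.1% of probe sets. GLR1.4 stood above the double mutant by 0.895 in C3H14-OE (limma adjusted p = 0.00485) and by 1.295 in C3H15-OE (adjusted p = 0.000484). Both calls held with each array left out in turn. C3H15-OE also stood above the double mutant for the dim GLR2.7 (2.07, limma adjusted p = 0.00113) and GLR2.8 (0.713, adjusted p = 0.00261). Both calls held with each array left out in turn. For GLR2.7 C3H14-OE stood 1.123 above the double mutant (adjusted p = 0.0307), a call lost in some such fits. GLR3.3 and GLR3.6, which carry wound signals between leaves, stood at 0.25 and -0.06 in C3H15-OE relative to WT and did not pass. Relative to the double mutant GLR3.3 stood at 0.497 in C3H15-OE (adjusted p = 0.0257), also lost in some of these fits. The one named exchanger, AT1G53210, a sodium and calcium exchanger with EF-hands, stood relative to WT at 0.11 for C3H14-OE, 0.32 for C3H15-OE and -0.09 for the double mutant, and did not pass.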

How the data were processed

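The authors deposited normalized intensities on a linear scale for 12 Affymetrix arrays, with RMA named in the submitters' processing notes, no version stated there. Per the labels' protocols, cRNA was made from 200 ng of total RNA with a 3′ IVT kit. After removal of 64 control probe sets and a log2 transform, all 22746 remaining probe sets were tested. Symbols came from the platform annotation and RefSeq (TAIR10.1); 13436 of 13513 single-gene probe sets matched, and without a named build no coordinates are printed. limma 3.58.1 (R 4.3.3) fitted a mean per group, with 6 contrasts and Benjamini-Hochberg adjustment over all probe sets (threshold 0.05; 8 residual and 3.61 prior degrees of freedom). The fit was tested on simulated data. For arrays, their number limits the precision.

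The members, gene lists and settings were chosen with earlier results of these data known. Every member is named, the genes most like CML38, AT5G39670 and called members by correlation, and up to 4 called genes or 2 others of a list; ORA47, PUB23 and STZ, AT1G76640 and the values of GLR3.3 and GLR3.6 were added after values were seen. The main fit treated the shared replicate numbers as names only. Of 18 same-number pairs, 4 had within-group deviations that correlated over 0.1, with a range from -0.275 to 0.274. Pairs with different numbers were not set beside them, so whether arrays of the same number share a batch was not tested.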

Additional observations from a re-analysis of the deposited data

Results flagged for a closer look

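CML41 stood 1.21 log2 units higher in C3H15-OE than in the double mutant (limma adjusted p = 0.0403, n = 3 arrays each), a difference between their effects relative to the same WT arrays. The call was lost in 8 of 12 fits that left out 1 array and with a block for replicate number (adjusted p = 0.0622). CML41 stood 0.47 above WT in C3H15-OE, or 0.10 without C3H15-OE replicate 1 and 0.87 without C3H15-OE replicate 3. In the double mutant it stood at -0.74 relative to WT, or -0.37 without c3h14c3h15 replicate 1. The 3 double mutant arrays lay below all WT arrays, as for 13.1% of all probe sets, and 2 of the C3H15-OE arrays lay above all WT arrays.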

How the results depend on the processing

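Of 8 genes, the number called was 0 in C3H14-OE against WT, and none of the 7 CML genes was called in C3H15-OE against WT, under any setting tried; calls of AT5G39670 on the C3H15-OE arrays follow from its choice and say nothing of stability. In the double mutant against WT it was 0 under all settings but 1, the fit to these 6 arrays alone, where it was 1 (CML38). Between the overexpressors it was 0, or 1 with array weights (AT5G39670). For C3H14-OE against the double mutant it was 0, from 0 to 1 with each array left out in turn, and 1 (CML42) without both overexpressor arrays numbered 3. For C3H15-OE against the double mutant it was 2, of which only CML41 is a test. It was 1 with an intensity trend and robust eBayes, 1 with only the arrays of the groups compared and 1 with the replicate block, CML41 being lost each time, from 1 to 3 with each array left out, and 3 without both overexpressor arrays numbered 3, where CML37 also passed (0.57, adjusted p = 0.0202). With WT replicate 2, c3h14c3h15 replicate 1 and C3H14-OE replicate 3 all left out, the number was 2, but CML41 was lost and CML37 (0.91, adjusted p = 0.0409) passed. The replicate block changed no other call among the 8 genes. Of 990 recomputed member differences 29, none called under either setting, changed sign, in 14 of 48 gene and comparison pairs; for CML38 between C3H15-OE and the double mutant the value was -0.58 without C3H15-OE replicate 3, against 0.22. Leaving out the dimmest 40% of probe sets removed CML23, CML37 and CML43, and averaging several probe sets per gene was not run since each member has 1.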

Other observations

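CaS (AT5G23060), a calcium-binding protein of the chloroplast thylakoid that is not an EF-hand protein, was picked after its values were seen. It read 9.36, 9.29 and 8.92 in the double mutant, against 8.37, 8.41 and 8.51 in WT. The groups did not overlap, as for 10.8% of all probe sets in this direction. The difference was 0.76 log2 units (SE 0.15), given as a description with no test, since these values chose the gene. The C3H14-OE arrays (8.90, 8.61 and 8.58) also lay above all WT arrays, as for 9.31% of probe sets, while the C3H15-OE arrays overlapped with WT. The summed linear intensity of the green tissue markers LHCB4.1 and LHCB4.2 was 8866 to 11470 in the double mutant, against 7276 to 8283 in WT, and their part in the CaS level was not tested.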
